A study of Rattus norvegicus with 4 samples.

Results

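Chondroitin sulfate proteoglycans of brain matrix were followed in cultured olfactory ensheathing cells, glia that accompany olfactory axons from the nose into the brain. The set comprised Ncan, Bcan, Vcan, Cspg4, Cspg5 and Ptprz1, the link protein gene Hapln1 and the xylosyltransferase gene Xylt1. Its members were found by the gene name printed on the array, where Ncan and Vcan carry their older names Cspg3 and Cspg2. This gave 8 genes of 35655 names on the array, or 11 of 41012 probes, and all 11 passed the filter on dim signals, which left 36746 probes. The set was proposed because earlier results of the same comparison had Ncan and Bcan far lower and Cspg4 higher in mucosa cells. The ratios of the members are therefore given as a description, without tests of their own. Where a member is said to be called, the call comes from the fit over all probes and is part of that description.

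Cells came from the olfactory mucosa and the olfactory bulb of male Fischer rats and were cultured by one protocol for both tissues; the ages of the animals are not given in the sources used here. Each of 4 arrays held 1 biological replicate as a pair, with mucosa cells labelled with Cy5 and bulb cells with Cy3, and the comparison asks how ensheathing cells of the 2 tissues differ in expression. The dyes were never swapped, so what is due to the dye and what to the tissue cannot be told apart. The arrays lay on 1 slide with 1 scan time. The cultures were measured in bulk, so fewer cells of a type and less RNA per cell cannot be told apart. A channel had 82.8% to 91.1% of its spots well above background, the scanner software's call for a signal clear of its surroundings. Across all tested probes, 6.54% passed the threshold, an adjusted p under 0.05 by limma with Benjamini-Hochberg adjustment, with 1150 higher and 1255 lower in mucosa cells.

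Ncan, Bcan and Vcan encode neurocan, brevican and versican, secreted core proteins that bind hyaluronan at one end and carry chondroitin sulfate chains along a central stretch. Link proteins such as the product of Hapln1 fasten them to hyaluronan, and the tenascins crosslink them at the other end. In the adult brain this matrix forms nets around neurons, and after injury it is laid down by glia and restrains the growth of axons. Cspg4 (the NG2 proteoglycan), Cspg5 (neuroglycan C) and Ptprz1 (a receptor tyrosine phosphatase) span the membrane, and a secreted form of the Ptprz1 product is phosphacan.

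The probes of 60 bases decide what each value stands for, because probes of Bcan and of Ptprz1 disagreed. Of the 8 probes shown, 5′ to 3′, the Bcan and Hapln1 probes of known mRNAs are whole and the others are given by their first 30 bases. Capitals mark the stop triplets TAA, TAG and TGA in any reading frame.
Ncan: tacttcccagctgtcaaagggagtctcgaa
Bcan, first mRNA probe: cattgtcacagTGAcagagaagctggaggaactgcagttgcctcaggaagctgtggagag
Bcan, second mRNA probe: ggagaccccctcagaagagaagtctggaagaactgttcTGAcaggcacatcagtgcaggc
Bcan, EST probe: aggcttgttttccaTGAaacagtcaaaaaa
Ptprz1, receptor mRNA probe: acgcagaaagggtgTAGgaccaccctcatc
Ptprz1, phosphacan mRNA probe: cccccacTAATGAaaacacagcaatatgga
Hapln1: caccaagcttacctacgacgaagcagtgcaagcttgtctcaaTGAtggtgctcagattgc
Cspg4: tgggaccaaagcccttacactacagggaac

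Positions come from the array annotation in the deposited files, on build rn4, and no annotation of exons, introns or UTRs was used. The Ncan probe (A_44_P425058) lies at chr16:19810549-19810608 on the plus strand. The 2 mRNA probes of Bcan (A_44_P359745 and A_44_P372251) lie on the minus strand at chr2:180074580-180074639 and chr2:180073505-180073564. The third Bcan probe (A_44_P486343) was designed on an expressed sequence tag (EST), a single read of a cDNA clone, and lies on the opposite, plus strand at chr2:180072919-180072978, 0.586 kb from the second mRNA probe. Over its whole length it has a stop triplet in each of the 3 reading frames of its own strand (0 of 3 open), whereas both mRNA probes have 2 of 3 frames open. Its GC content was 36.7%, against 53.3% and 55.0% for the mRNA probes. These traits are not particular to the EST probe, since the Vcan probe also had 0 of 3 frames open, with a GC content of 26.7%. The Ptprz1 receptor probe (A_42_P475885) and phosphacan probe (A_44_P482128) lie on chromosome 4 at 49467897 to 49467956 and 49418692 to 49418751.

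Of the 11 probes, 9 had a mean ratio below 0 (higher signal in bulb cells) and 2 above it, and the median log2 ratio of mucosa over bulb was -0.93, beside -0.0040 over all tested probes. The fit over all probes called 4 of the 11, 1 higher and 3 lower, where 6.54% of all probes were called (3.13% higher and 3.42% lower). The sign was the same on all 4 arrays for 9 of 11 probes, where 33.4% of all tested probes had this. The normalized levels of the 4 mucosa and the 4 bulb channels did not overlap for 8 of 11 probes, 2 higher and 6 lower in mucosa, where 20.7% of all tested probes had no overlap. Nothing is read from these counts, since the members were chosen on this comparison. No member probe was saturated, and 9 of 11 were well above background in every channel.

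**Figure D1:**
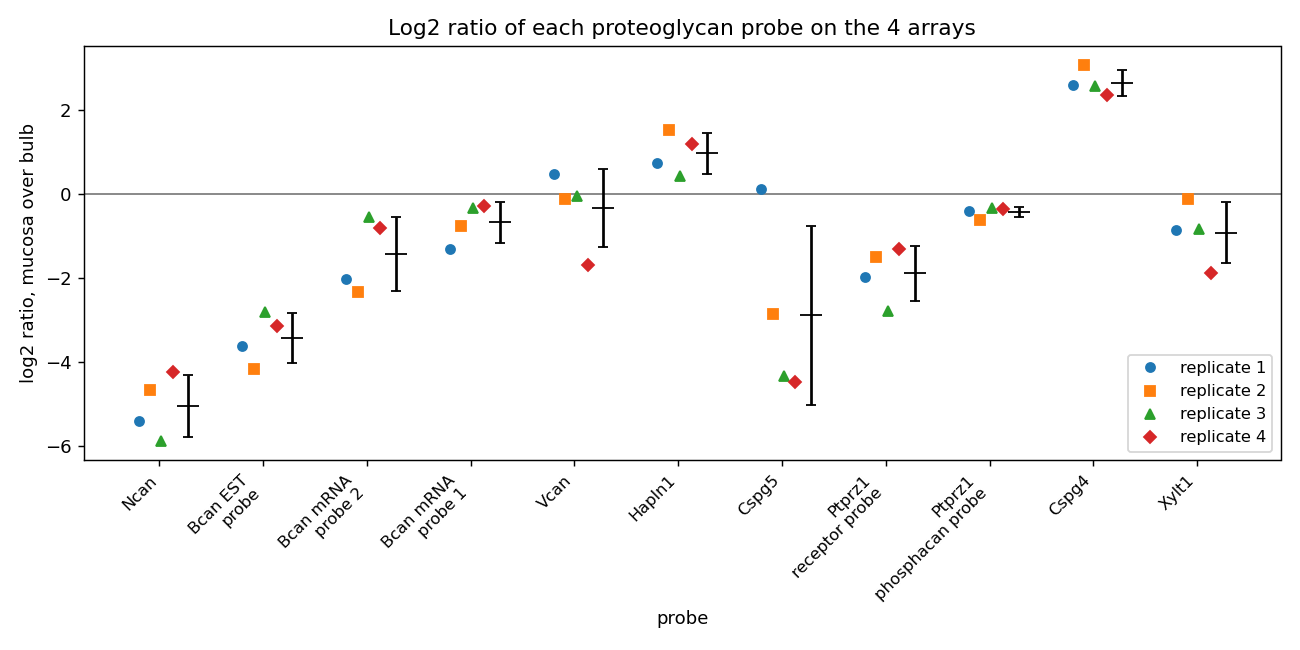
Log2 ratio of mucosa over bulb (vertical axis) for the 11 probes (horizontal axis); each symbol is 1 array, and the bar beside the symbols is the mean ± SD of 4 arrays. Ncan lies lowest at -5.05, Cspg4 highest at 2.65, the 3 Bcan probes are apart from each other, and Cspg5 has 1 array at 0.11 and 3 from -2.86 to -4.48.

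Neurocan showed the lowest ratio of the set. The Ncan log2 level, normalized per channel across arrays, was 13.59, 13.93, 13.68 and 13.38 in bulb cells of replicates 1 to 4. In mucosa cells it was 8.18, 9.26, 7.79 and 9.14. Every bulb value lay far above every mucosa value, and the probe was well above background in all channels. The ratios were -5.41, -4.67, -5.90 and -4.24, a mean of -5.05 ± 0.74 (SD, n = 4), or 33.2-fold lower in mucosa cells. With 1 array left out the mean stayed between -5.33 and -4.77.

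Brevican gave 3 different answers with 3 probes. At the EST probe the levels in bulb cells were 10.98, 10.51, 9.23 and 9.52, and those in mucosa cells 7.35, 6.34, 6.42 and 6.37. The groups did not overlap, but only replicates 1 and 2 of the mucosa channel were well above background, so the mucosa level of the other 2 has only a bound. The mean ratio as measured was -3.44 ± 0.60 (SD, n = 4), with 2 of the 4 mucosa values not well above background, so no fold is given. It was -5.00 in the authors' deposited table.

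At the second mRNA probe, levels were 9.07, 9.04, 8.07 and 7.95 in bulb cells and 7.04, 6.70, 7.52 and 7.14 in mucosa cells. At the first mRNA probe they were 9.14, 8.59, 8.33 and 8.32 against 7.82, 7.82, 8.00 and 8.03. At neither probe did the groups overlap, though at the first the highest mucosa and lowest bulb values were closer to each other than bulb replicates 1 and 2. The mean ratios were -1.43 ± 0.88 and -0.68 ± 0.48 (SD, n = 4), 2.70-fold and 1.60-fold lower, and neither was among the calls.

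The disagreement held on each array. The EST probe had a lower log2 ratio than the first mRNA probe by -2.31, -3.41, -2.48 and -2.86 (mean -2.76 ± 0.49, SD, n = 4). Against the second mRNA probe the differences were -1.61, -1.84, -2.25 and -2.34. The 2 mRNA probes lie 1.075 kb apart on one strand. At all 3 probes the ratios of replicates 1 and 2 were lower than those of replicates 3 and 4. The EST probe (-3.63, -4.18, -2.81 and -3.15) and the second mRNA probe (-2.02, -2.34, -0.56 and -0.81) had the same order of the 4 arrays, and the first mRNA probe had another. The large brevican value rests on the probe of the opposite strand alone, and whether that probe reports the brevican mRNA was not tested.

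**Figure D2:**
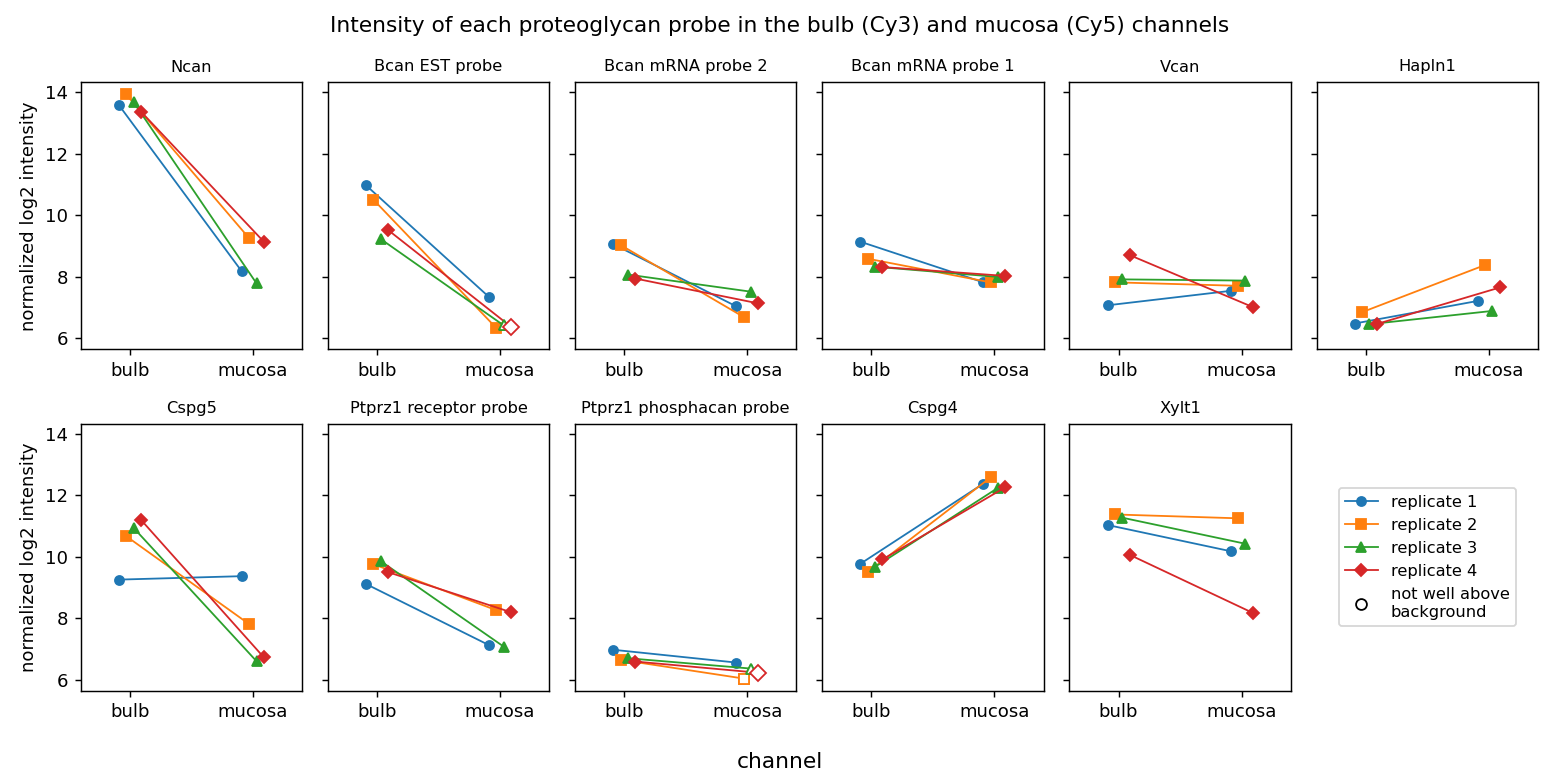
Normalized log2 intensity (vertical axis) in the bulb (Cy3) and mucosa (Cy5) channels for each of the 11 probes; a line joins the channels of 1 array, and open symbols are not well above background. The drop in Ncan and the rise in Cspg4 from bulb to mucosa occur on all 4 arrays, replicate 1 of Cspg5 is flat where the other 3 fall, and heights are not comparable between panels.

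Versican showed no ratio as low as that of neurocan. The Vcan probe (Cspg2 on the array, chr2:19712731-19712790) had ratios of 0.47, -0.11, -0.04 and -1.69, a mean of -0.34 ± 0.93 (SD, n = 4), and its groups overlapped. Its levels were 7.08, 7.82, 7.92 and 8.71 in bulb cells and 7.54, 7.71, 7.88 and 7.02 in mucosa cells, with replicate 4 the highest in bulb and the lowest in mucosa. Without replicate 4 the mean was 0.11, and without any other array it stayed below 0. A versican probe that the array names by a transcript identifier, and which the name rule therefore leaves out, lies at chr2:19714573-19714632. It had ratios of -0.70, 0.01, 0.07 and 0.19, with a mean of -0.11 ± 0.40 (SD, n = 4). This probe was the far brighter one, with mean levels of 12.69 in mucosa cells and 12.80 in bulb cells. Both probes thus had mean ratios less than 1 SD from 0.

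Hapln1, whose product links such core proteins to hyaluronan, was the member besides Cspg4 with a ratio above 0. Its levels were 7.22, 8.39, 6.89 and 7.66 in mucosa cells and 6.48, 6.85, 6.46 and 6.47 in bulb cells. The groups did not overlap, but replicate 3 of mucosa lay only just above replicate 2 of bulb. The ratios were 0.73, 1.53, 0.43 and 1.19, a mean of 0.97 ± 0.49 (SD, n = 4), or 1.96-fold higher, and 1.87 in the authors' deposited table. It was not called under any setting tried.

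Each of these core protein genes lies beside a link protein gene, and the neighbours of Ncan and Bcan did not pass the test. The Hapln4 probe, 8.271 kb from the Ncan probe on chromosome 16, had a log2 ratio of 0.16 ± 0.21 (SD, n = 4; adjusted p = 0.671 by limma). The brighter Hapln2 probe, 30.133 kb from the first Bcan probe, had 0.58 ± 0.18 (adjusted p = 0.153), and a second one had 0.17 ± 0.49. The Hapln1 and Vcan probes lie 75.908 kb apart. Differences between neighbours were not tested.

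Cspg5, a transmembrane proteoglycan of neural cells, had the widest spread among the members. Its levels in bulb cells were 9.25, 10.67, 10.94 and 11.20, and in mucosa cells 9.36, 7.81, 6.60 and 6.72. Replicate 1 had nearly the same level in both tissues, and in the other 3 the mucosa level was far lower, so the groups overlapped. The ratios were 0.11, -2.86, -4.34 and -4.48, a mean of -2.89 ± 2.13 (SD, n = 4). Without replicate 1 the mean was -3.89 and the probe was among the calls, which it was not with all arrays; with another array left out it lay between -2.90 and -2.36. The probe was well above background in all channels, also in replicate 1.

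Ptprz1 was lower in mucosa cells at the probe designed on the receptor mRNA. Bulb levels were 9.11, 9.75, 9.85 and 9.50 and mucosa levels 7.12, 8.26, 7.07 and 8.19, without overlap. The ratios were -1.99, -1.50, -2.78 and -1.30, a mean of -1.89 ± 0.66 (SD, n = 4), or 3.71-fold lower. The call was lost without replicate 1 or replicate 2, where the means were -1.86 and -2.02.

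The phosphacan probe gave a mean of -0.43 ± 0.12 (SD, n = 4), with ratios of -0.42, -0.61, -0.34 and -0.36. It was dim, with levels of 6.59 to 6.97 in bulb cells and 6.04 to 6.56 in mucosa cells, and was well above background in 4 bulb channels but only in replicate 1 of mucosa. Its ratio depended on background treatment and on normalization. It was -0.73 with a smaller normexp offset of 16 and -0.84 with median centring in place of loess. In the authors' deposited table, where both differ, it was -2.03 and among the calls. The difference between the probes was -1.57, -0.89, -2.44 and -0.94 on the 4 arrays. Since 3 of the 4 mucosa values of the phosphacan probe are only bounds, the size of this difference is not settled. Both probes are named by the mRNA they were designed on. Whether they tell the receptor and phosphacan forms apart was not tested.

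Cspg4, the NG2 proteoglycan of oligodendrocyte precursors and pericytes, was the member higher in mucosa cells by the most. Its levels were 12.37, 12.58, 12.24 and 12.26 in mucosa cells and 9.77, 9.50, 9.67 and 9.91 in bulb cells. The groups were far apart, and replicates within a tissue differed little, with SDs of 0.16 and 0.17. The ratios were 2.61, 3.08, 2.57 and 2.35, a mean of 2.65 ± 0.31 (SD, n = 4), or 6.28-fold higher. The probe (A_42_P696084) lies at chr8:60645806-60645865, and its mean stayed between 2.51 and 2.89 in every setting tried.

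Xylt1, whose enzyme adds the first sugar of the chain to a core protein, had levels of 11.03, 11.37, 11.27 and 10.06 in bulb cells and 10.18, 11.25, 10.42 and 8.17 in mucosa cells. Replicate 4 was the lowest in both tissues. The ratios were -0.85, -0.13, -0.85 and -1.89. The mean was -0.93 ± 0.72 (SD, n = 4), with overlapping groups, and -0.61 without replicate 4. Its paralogue Xylt2 had -0.10 ± 0.26 (adjusted p = 0.800 by limma).

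**Figure D3:**
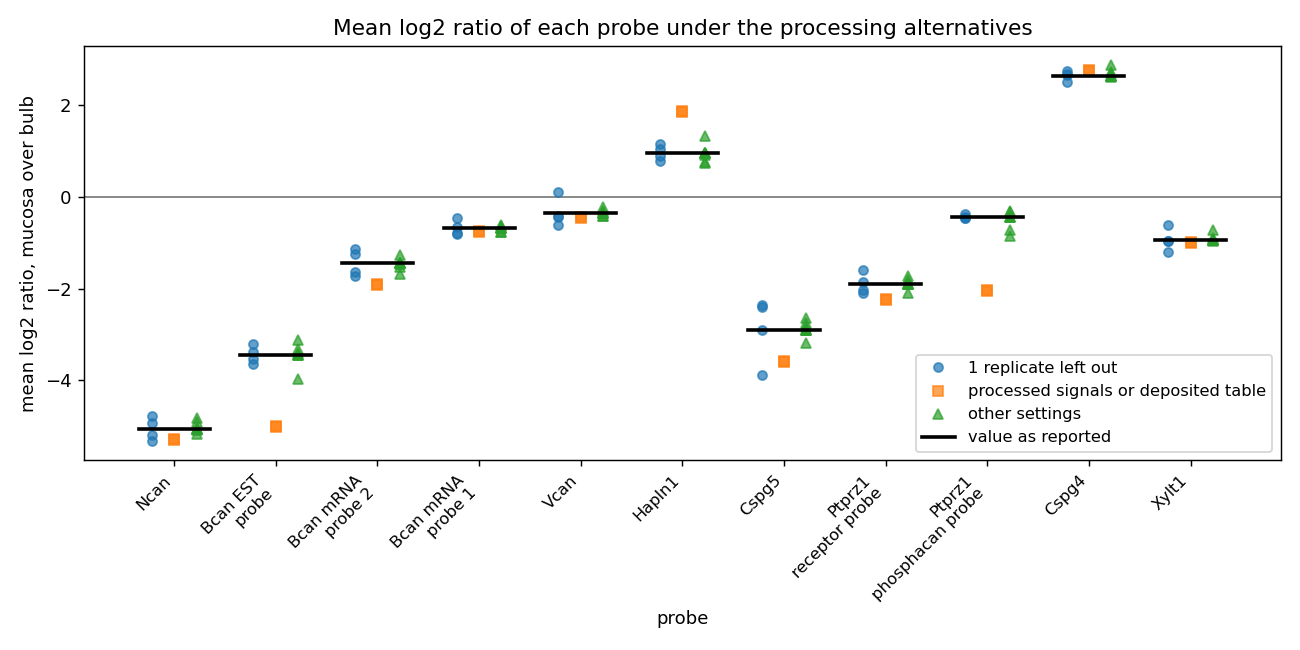
Mean log2 ratio of mucosa over bulb (vertical axis) of each probe (horizontal axis) with 1 replicate left out (circles), from the processed signals or the authors' deposited table (squares) and in the other settings (triangles); the line is the value as reported. Ncan stays between -5.33 and -4.77 and Cspg4 between 2.51 and 2.89. The EST probe of Bcan, dim in the mucosa channel only, and the dim phosphacan probe of Ptprz1 are lower by the processed signals. Only Vcan crosses 0.

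Marker genes of other cells also differed between the tissues. Some genes stand on more than 1 list, so the counts are not independent. Gfap and S100b are on the ensheathing and astrocyte lists, Sox10 on the ensheathing and oligodendrocyte lists, and Pdgfra on the oligodendrocyte and fibroblast lists. The markers Ngfr, Dcn, Fbln1, Pdgfra and Pdgfrb also count among the genes around the proteoglycans given below. Of the ensheathing and Schwann glia markers, 7 of 12 tested were lower in mucosa cells and 0 higher, and of the astrocyte markers 4 of 9 were lower (Gfap, Slc1a3, S100b and Atp1b2) and 0 higher, where 3.31% of all gene names were called lower. The other astrocyte markers were not called, with ratios of 0.35 for Aqp4, 0.51 for Slc1a2, 1.1 for Aldh1l1, 0.35 for Slc4a4 and -0.55 for Gjb6. The medians of the lists were -1.36 (ensheathing) and -0.55 (astrocyte), and Atp1b2, at -4.79, was by far the lowest astrocyte marker. The mean log2 level over the astrocyte list ran from 7.86 to 8.42 in the mucosa channels and from 8.79 to 9.04 in the bulb channels, and that over the ensheathing list from 9.62 to 10.02 and from 11.07 to 11.15. Oligodendrocyte lineage markers had 3 of 9 lower (Sox10, Mbp and Cnp) and 0 higher and a median of -0.06, with levels of 10.35 to 10.48 in mucosa and 10.87 to 10.98 in bulb channels. Neuronal markers had 3 of 10 lower (the neurofilament genes Nefl, Nefm and Nefh) and 0 higher, with a median of -0.12 (7.74 to 8.27 against 8.62 to 8.86). The uncalled ones went both ways, with 0.87 for Syt1, 0.22 for Rbfox3, 0.21 for Gap43 and 0.09 for Omp. Snap25 had -0.09, Tubb3 -0.15 and Stmn2 -1.16.

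Over all gene names, 3.17% were called higher and 3.31% lower in mucosa cells. Beside Cspg4, pericyte and smooth muscle markers had 4 of 7 higher (Pdgfrb, Tagln, Cnn1 and Anpep) and 0 lower, with mean levels of 11.17 to 11.59 in mucosa and 10.09 to 10.72 in bulb channels. The others were not called: Rgs5 had -2.45 ± 2.29 (SD, n = 4), opposite to the called ones, Kcnj8 -0.08 and Des 0.23. The oligodendrocyte lineage markers Pdgfra, Olig1 and Olig2 had log2 ratios of -0.33 ± 0.54, -0.06 ± 0.54 and 0.22 ± 0.39 (SD, n = 4), none called. Fibroblast markers had 5 of 11 higher and 2 lower, with a median of 1.02 (13.11 to 13.28 against 11.91 to 12.80). The higher ones were Mfap5 (3.99), Thy1 (3.90), Col1a2 (2.27), Col1a1 (1.82) and Postn (1.70), and the lower ones Fbln1 (-4.15) and Dcn (-2.01). Uncalled were Lum (1.02), Fap (0.62), Col3a1 (-0.17) and Pdgfra. Microglia and macrophage markers had 1 of 7 lower (Cd163, at -1.58 ± 0.43) and 0 higher, with a median of -0.81 (9.02 to 10.16 against 9.67 to 10.81). Some of the uncalled ones changed sign between arrays. Replicates 1 to 4 gave 1.84, 0.75, -2.34 and -3.48 for Cd68 and 1.47, -0.27, -1.28 and -3.88 for Itgam. Every tested marker was well above background on at least 1 array of each tissue, a call that 82.8% to 91.1% of a channel's spots passed. The call alone does not show that a marker's transcript was present. The part of these cells in the proteoglycan values was not tested.

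The genes around the proteoglycans were taken from 5 lists by function, with each gene at its brightest tested probe. Of 91 tested genes, 8 rose and 15 fell in mucosa cells, where 6.48% of 31890 gene names were called (3.17% higher and 3.31% lower). The median over all gene names was 0.01. The counts depend on the number of arrays: without replicate 1, 2, 3 or 4 the calls were 7, 7, 11 and 8, and the authors' deposited table gave 12.

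Enzymes that build and sulfate the chains had 0 higher and 2 lower of 23 tested genes (8.70%), with a median of -0.10. Csgalnact1, which starts the chondroitin chain, fell by 2.06 ± 1.02 on the log2 scale (SD, n = 4; adjusted p = 0.0355 by limma), with -1.63 ± 1.17 at a second probe that was not called. Chst11, a sulfotransferase for the 4 position of the sugar, fell by 1.94 ± 0.73 (adjusted p = 0.0213). Both calls were lost without replicate 1, 2 or 4 (highest adjusted p = 0.127 and 0.0904). The chain polymerase gene Chsy1 had -2.05 ± 1.24 without passing (adjusted p = 0.0561).

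Other core proteins that carry chondroitin or dermatan sulfate had 3 higher and 5 lower of 15 tested genes (53.3%), with a median of -0.24. Cd74, the invariant chain of MHC class II, rose by 3.10 ± 0.82 (SD, n = 4; adjusted p = 0.00678 by limma), and the small matrix proteoglycan genes Bgn and Epyc by 1.49 ± 0.33 and 1.43 ± 0.71. Dcn fell by 2.01 ± 0.95, the syndecan gene Sdc3 fell by 1.93 ± 0.45 and the semaphorin co-receptor gene Nrp1 fell by 1.59 ± 0.80. Acan, the large aggregating proteoglycan of cartilage and of perineuronal nets, had -0.29 ± 0.44 (adjusted p = 0.505). Cd74 remained called without each array in turn. The others lost the call: Epyc and Nrp1 without any 1 array (highest adjusted p = 0.143 and 0.126), Bgn without replicate 1, 2 or 4 (0.0823), Dcn without replicate 2, 3 or 4 (0.118) and Sdc3 without replicate 1 or 2 (0.0598). The list kept 2, 1, 3 and 2 calls without replicates 1 to 4.

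Hyaluronan synthases, link proteins and binding partners had 2 higher and 4 lower of 21 tested genes (28.6%), with a median of -0.20. Tnc, the tenascin that binds neurocan, fell by 2.28 ± 0.46 (SD, n = 4; adjusted p = 0.00676 by limma). Ptn, a growth factor ligand of the Ptprz1 receptor, fell by 3.91 ± 0.88 (adjusted p = 0.00428), and its relative Mdk had -0.27 ± 0.37 (adjusted p = 0.515). Fbln1, a matrix glycoprotein that binds lecticans, fell by 4.15 ± 0.62 (adjusted p = 0.00222) and had -4.16 ± 0.64 at a second probe. These 3 calls remained without each array in turn.

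Fbln2 rose by 1.51 ± 0.68 and the hyaluronan receptor gene Hmmr by 1.48 ± 0.53 (SD, n = 4), both lost without any 1 array (highest adjusted p = 0.122 and 0.0926 by limma), and a second, dimmer Hmmr probe had -0.54 ± 0.93. Tnr, the tenascin of perineuronal nets, had 0.66 ± 0.40 (adjusted p = 0.159) and 0.07 ± 0.25 at its other probe. The synthase genes Has1, Has2 and Has3 had -1.15 ± 0.60, 0.23 ± 0.83 and 0.03 ± 1.70, none called (adjusted p = 0.0666, 0.716 and 0.985).

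**Figure D4:**
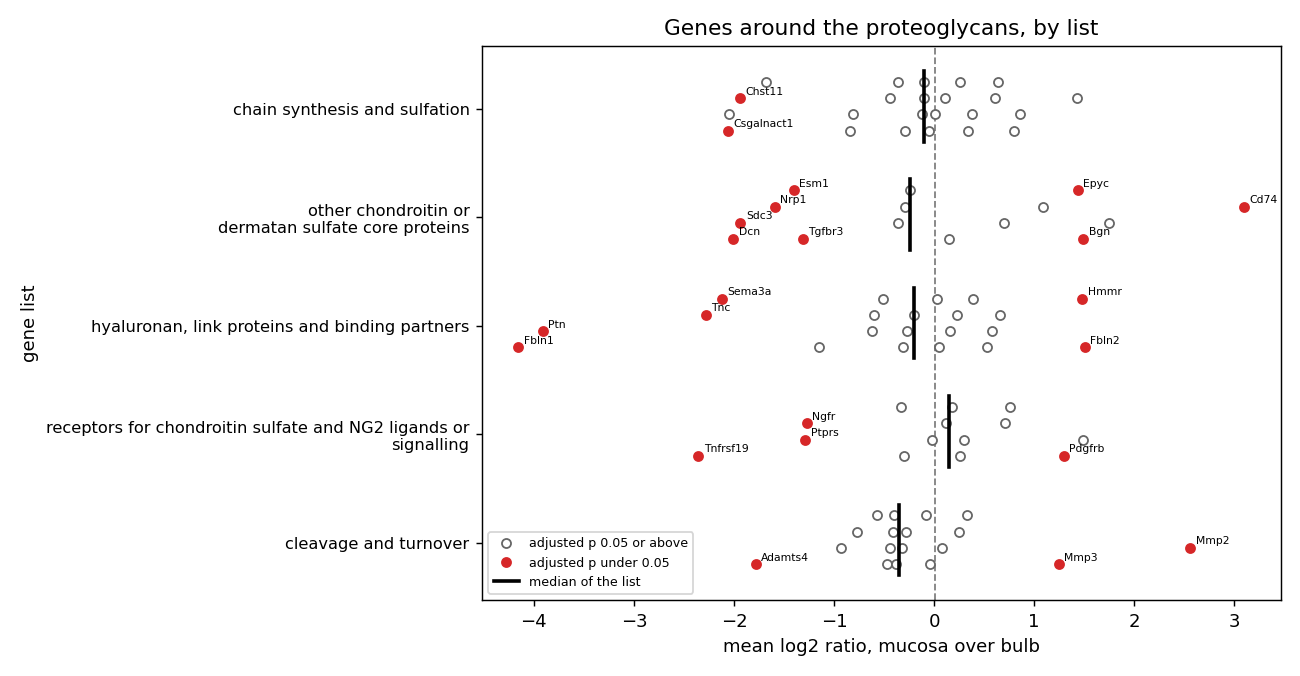
Mean log2 ratio of mucosa over bulb (horizontal axis) of the tested genes in 5 lists (vertical axis); each circle is a gene, filled and named where its adjusted p was under 0.05, the thick line is the list's median and the dashed line the median over all gene names, 0.01. Fbln1 and Ptn lie farthest to the left and Cd74 and Mmp2 farthest to the right, and the list medians run from -0.35 to 0.15.

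Receptors and signalling partners had 1 higher and 3 lower of 14 tested genes (28.6%), with a median of 0.15. Ptprs (named Ptprd on the array), a receptor phosphatase that binds chondroitin sulfate chains, fell by 1.29 ± 0.43 (SD, n = 4; adjusted p = 0.0327 by limma). Tnfrsf19 and Ngfr, receptors that can serve in the Nogo receptor complex, fell by 2.35 ± 0.20 and 1.27 ± 0.23, whereas Rtn4r, the Nogo receptor gene, had 0.12 ± 0.17 (adjusted p = 0.749). Pdgfrb, a receptor found with NG2 on pericytes, rose by 1.30 ± 0.49. The Tnfrsf19 call remained without each array in turn, and the other 3 were lost without any 1 of the arrays (highest adjusted p = 0.138, 0.110 and 0.146 for Ptprs, Ngfr and Pdgfrb).

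Enzymes of cleavage and turnover had 2 higher and 1 lower of 18 tested genes (16.7%), with a median of -0.35. Adamts4, a protease that cuts lecticans including brevican, fell by 1.78 ± 0.37 (SD, n = 4; adjusted p = 0.0107 by limma), a call lost without replicate 1 or 2 (highest adjusted p = 0.0642). Adamts5 had -0.38 ± 0.67 (adjusted p = 0.487). Mmp2 rose by 2.56 ± 0.28 (adjusted p = 0.00329) and by 1.69 ± 0.11 at a second probe, and remained called without each array in turn. Mmp3 rose by 1.25 ± 0.55, a call lost without any 1 array (highest adjusted p = 0.146).

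Among 13799 gene symbols compared with Ncan by the root mean square difference of the ratios over the 4 arrays, those with the closest ratios included Atp1b2, a subunit of the sodium pump, and Cox6b2, which encodes a respiratory chain subunit. Their differences from Ncan were 0.87 and 0.93 on the log2 scale, and their means -4.79 and -4.72. Those most like the EST probe of Bcan, its brightest, were Mgat4c, Ednrb (an endothelin receptor gene) and Vtn (vitronectin), at 0.41, 0.43 and 0.55. Those close to Cspg4 included Ecm1 (an extracellular matrix protein) and Catsperg, at 0.21 and 0.22.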

How the data were processed

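Ensheathing cells of 2 tissues were measured on 4 two-colour Agilent arrays of 45018 features. Per the labels' protocols, mRNA went through global PCR of its cDNA, which can change transcript ratios, and 250 ng of cDNA per channel were labelled. The members and lists were chosen with earlier results of these data known. Per the file headers, files came from Agilent Feature Extraction 10.5.1.1 (the submitters' processing notes name 9.1). The deposited spot signals are intensity values without normalization, the software subtracted background from its processed signals and balanced the dyes, and the deposited ratio is log10 of Cy5 over Cy3. The authors' deposited value table holds the same log10 ratio at every feature, and has 0 columns without a sample.

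Background (spot mean against local median) was corrected by normexp with offset 50, then loess was run on the ratios of each array (limma 3.58.1, R 4.3.3). Control and outlier spots had weight 0; the remaining spots of a probe were averaged, and 33 tested probes lacked a ratio on some array. A probe was tested if well above background on at least 3 arrays in a channel, which removed 4263 probes. The mean log2 ratio of each probe was tested against 0 with lmFit and eBayes and Benjamini-Hochberg adjustment over 36746 probes at 0.05. Levels per channel were taken after Aquantile normalization. Normexp with an offset shrinks the ratio of dim probes. Names of 10835 probes came through an accession, 5196 through a symbol, 3475 through a synonym and 3 through an alias in RefSeq's GRCr8 gene table, from which no coordinate was taken; 21503 kept the array's name. Genes named were every member probe, up to 3 called genes of largest ratio per list and direction, and the 3 genes most like Ncan, Bcan and Cspg4, of which some are not reported here; genes named beside these (Chsy1, Xylt2, Acan, Mdk, Tnr, Has1 to Has3, Hapln2, Hapln4, Rtn4r, Adamts5, Pdgfra, Olig1, Olig2 and the single markers) were chosen after their values were seen. The number of arrays limits the precision.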

Additional observations from a re-analysis of the deposited data

How the results depend on the processing

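Alternatives were other background treatments, median centring, processed signals, the deposited table, other filters, outlier spots kept, unpaired channels and each array left out; correcting ratios for probe GC was chosen after seeing the data. All 14 kept the sign of 10 of 11 member probes where these were tested, and the exception was Vcan without replicate 4. Part of this was fixed in advance. The other filters and the unpaired channels leave the mean of every probe they test unchanged, so no sign could differ there. Processed signals and the deposited table gave nearly the same means as each other, so they are not separate checks. The EST probe of Bcan and the phosphacan probe were removed by the strict filter. The number of member probes called was 4, and 3 to 6 in the alternatives. Over all probes 2405 were called, 3985 with channels unpaired (no replicate block), and 616 to 1230 with 1 replicate left out. The unpaired channels also called the second Bcan mRNA probe and Cspg5. Of pathway genes 23 were called, 12 by the processed signals and 12 by the deposited table, and 7 to 11 with 1 replicate left out. Fewer arrays were fitted in the last, and the cause of the other changes was not tested. Median centring gave 58.5% higher among calls against 47.8%. Mucosa signals near background limit the Bcan EST and phosphacan probes. Hapln1, at 0.97 as reported, gave 1.85 by processed signals, 1.87 by the deposited table and 0.74 by median centring, and the cause was not tested.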
